A study of Rattus norvegicus with 10 samples.

Results

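The NMDA receptor is a glutamate-gated cation channel, and the 6 genes described here encode its subunits. They were taken from the deposited table by symbol (Grin1, Grin2a, Grin2b, Grin2c, Grin2d and Grin3a), and each symbol had 1 row, so they make up 6 of 16041 rows. RNA had been sequenced from the prefrontal cortex of male Sprague-Dawley rats on postnatal day 91. There were 5 controls and 5 rats exposed to early life stress (ELS) by limited nesting, a procedure in which dam and pups have little nest material, from postnatal day 2 to postnatal day 9. Both groups shared the strain, sex, tissue and age, neither carried a transgene or a drug according to the labels, and litters were not given, and each p-value therefore reflects only how far these 10 pieces of tissue vary.

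Every NMDA receptor contains GluN1, the product of Grin1, which binds the co-agonist glycine or D-serine. It is joined by GluN2 subunits (Grin2a to Grin2d), which bind glutamate and set the channel's kinetics and its magnesium block, or by GluN3 subunits (Grin3a, Grin3b), which bind glycine and lower calcium entry. In forebrain, GluN2B dominates early in life and GluN2A is added during postnatal maturation, while GluN2C is known from cerebellar granule cells and astrocytes, and GluN2D and GluN3A from interneurons and the young brain.

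All levels are RPKM, reads per kilobase of gene model and scaled to the library's total reads. Gene lengths implied by the table were 5192 bases for Grin1, 4259 for Grin2a, 5261 for Grin2b, 4669 for Grin2c, 5256 for Grin2d and 3217 for Grin3a. Libraries held 18838898 to 22311136 reads. Markers of excitatory cortical neurons were above 0 in every library: Slc17a7, the vesicular glutamate transporter, was at 351.8 to 426.6 RPKM in controls and 382.5 to 415.4 RPKM in ELS, and the cortical transcription factor gene Tbr1 at 9.37 to 31.9 RPKM in controls and 31.6 to 35.5 RPKM in ELS. Earlier results of these data set 2 libraries apart, ELS replicate 2, in which Grin2a and Grin2b lay at control levels while its marker sums were mixed, and control replicate 4, which had the highest oligodendrocyte marker sum (2077 RPKM, against 1008 in the lowest control and 763.2 to 992.5 RPKM in ELS). Of the controls, replicate 4 also had the lowest neuronal (1019 RPKM) and interneuron (192.6 RPKM) sums and the highest astrocyte sum (585.6 RPKM). Its sum of excitatory cortical neuron markers (1482 RPKM) was the highest of the controls, so the neuronal marker lists differ for this library. The level of Neurod1, listed as a cerebellar granule cell marker, was 6.68 RPKM in control replicate 4, against 1.79 to 2.47 RPKM in ELS. Gabra6 and Cbln3, the other listed markers of these cells, had no row, so Neurod1 alone does not identify such cells. In ELS replicate 2 the neuronal sum (1299 RPKM) lay with ELS, and those of red blood cells (438 RPKM) and microglia (59.4 RPKM) lay inside the control ranges. Fold changes of the subunit genes that shift with these libraries are given with and without them. Because ELS replicate 2 is itself the ELS library at control level for Grin2a and Grin2b, an adjusted p computed without it is conditioned on the outcome and is no independent test of these genes.

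Ranked by level, Grin1 stood far above the other subunits in every library. In controls its mean of 81.1 ± 1.67 RPKM (SD, n = 5) ranked 544 of 16041 rows, and Grin2c followed at 19.7 ± 2.46 RPKM (rank 3200). Grin2a was at 9.16 ± 3.24 RPKM (rank 6342), Grin2b at 5.94 ± 1.96 (rank 8202), Grin3a at 4.10 ± 0.690 (rank 9611) and Grin2d at 1.81 ± 0.115 RPKM (rank 11978). The median row of the table was at 6.19 RPKM in controls, so that Grin2b, Grin3a and Grin2d lay below it. Neighbours in this order did not all differ beyond their spread: the control ranges of Grin2a and Grin2b overlapped, as did those of Grin2b and Grin3a, although Grin2a exceeded Grin2b within each of the 5 control libraries. Grin2c, not Grin2a or Grin2b, was the highest GluN2 gene in all 10 libraries, at 43.6% to 67.2% of the summed GluN2 level in controls. In reads not divided by length its share in controls was 43.5% to 66.7%. The gene models behind the lengths were not checked against an annotation of the files' build, so levels compared between genes carry that limit.

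In ELS the order below Grin2c was different in 4 of 5 libraries. Grin3a, at 4.71 ± 0.823 RPKM, lay above Grin2a (3.65 ± 3.18), Grin2b (2.90 ± 1.99) and Grin2d (2.06 ± 0.161 RPKM) in ELS replicates 1, 3, 4 and 5. In ELS replicate 2 the order was that of control replicates 1, 2, 4 and 5. The spread of Grin2a and Grin2b in ELS was so wide that their means did not differ beyond it from that of Grin3a. The rank of the mean level went from 6342 to 9790 for Grin2a and from 8202 to 10478 for Grin2b, while Grin1 went from 544 to 451.

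**Figure D1:**
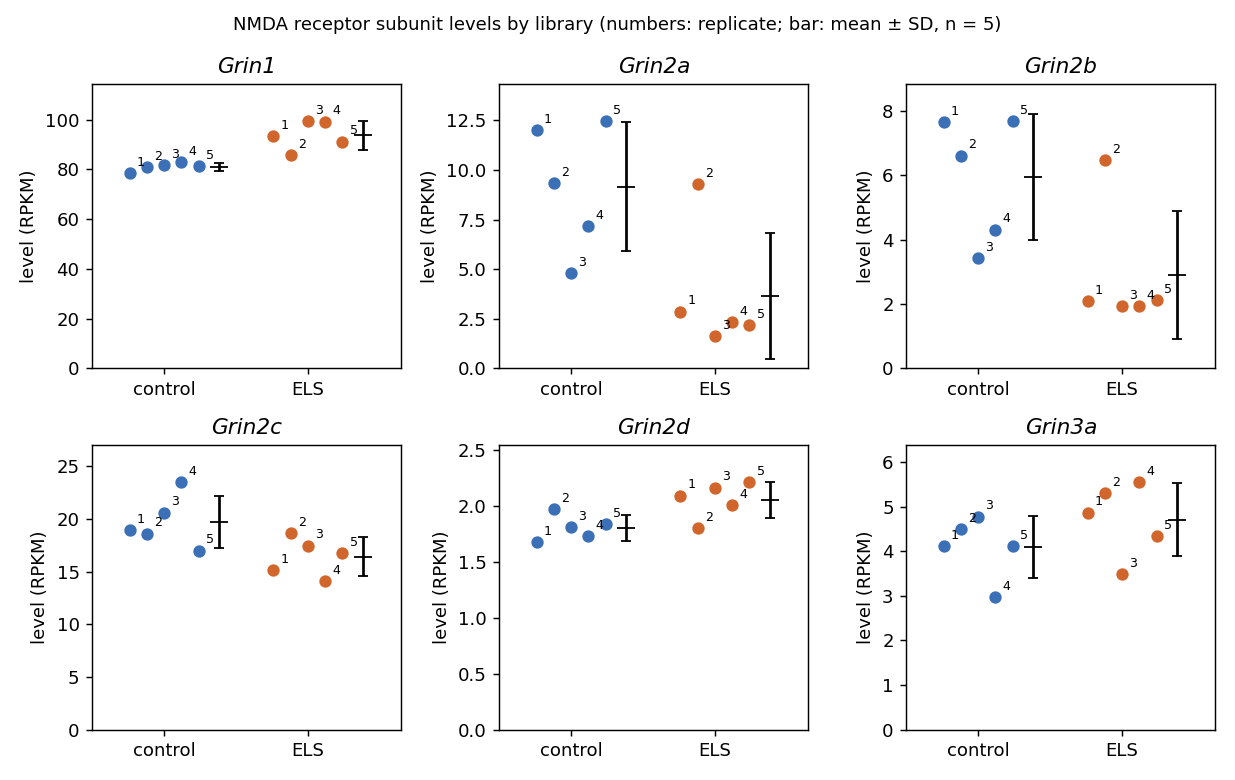
Level of each subunit gene (vertical axis, RPKM, from 0) in the 5 control and 5 ELS libraries, with the replicate number beside each point and a bar for mean ± SD. Grin1 lay higher in all ELS libraries than in any control, and Grin2a and Grin2b were at 1.61 to 2.86 RPKM and 1.92 to 2.12 RPKM in every ELS library except replicate 2.

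The comparison of ELS with control asks which subunit transcripts differed in adult cortex after stress from postnatal day 2 to postnatal day 9. By limma, a linear model with a spread estimate shared across genes, on log2(RPKM + 0.1) values, 0 of the 6 subunit genes passed an adjusted p (Benjamini-Hochberg over 14642 genes) of 0.05. Over all tested genes the share that passed was 0%, and limma-voom on the recovered reads also gave 0 genes. With sample quality weights, limma-voom gave 947 genes, with Grin1 (adjusted p = 0.028), Grin2a (0.0323) and Grin2b (0.0349) among them. At an unadjusted p under 0.05 there were 4 subunit genes, against 20.4% (2988) of all genes tested. Of these, Grin1 was higher in ELS (10.1% of all genes were called in that direction) and Grin2a, Grin2b and Grin2c were lower (10.3%). The median log2 fold change of the 6 genes was -0.04, beside 0.0037 for all genes.

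Grin1, the obligatory subunit, was at 78.4, 81.0, 81.7, 82.9 and 81.3 RPKM in control replicates 1 to 5. In ELS replicates 1 to 5 it was at 93.4, 85.6, 99.6, 99.2 and 91.2 RPKM. The groups did not overlap, and ELS replicate 2 was the nearest to the controls. Over all genes tested, 3.08% had every ELS library above every control, and 5.68% had groups apart in either direction. The mean was 1.16-fold that of controls, which is 0.21 ± 0.05 on the log2 scale (SE; adjusted p = 0.133 by limma). With ELS replicate 2 left out it was 0.24 (adjusted p = 0.0223), and leaving out both it and control replicate 4 gave 0.25 (adjusted p = 0.0135). Because ELS replicate 2 was the nearest to the controls, these adjusted p values are conditioned on the outcome and are no independent test of Grin1. Each library held 8305 to 10814 Grin1 reads, and the coefficient of variation was 2.06% in controls and 6.22% in ELS, against about 1.0% from counting alone (1.07% and 1.02%).

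Pan-neuronal markers, like Grin1, had higher group means in ELS. They did not follow Grin1 in every library: control replicate 4 had the highest Grin1 level of the controls (82.9 RPKM) and the lowest neuronal sum. Sums of excitatory cortical neuron markers overlapped, at 1114 to 1482 RPKM in controls (highest in control replicate 4) and 1252 to 1440 RPKM in ELS. Of these markers, 5 of 5 had a log2 fold change above 0, with 0 at an unadjusted p under 0.05. The summed level of Rbfox3, Snap25, Syt1 and Stmn2, pan-neuronal genes, was 1019 to 1236 RPKM in controls and 1298 to 1491 RPKM in ELS, with 4 of 4 members at a higher mean in ELS, 3 of them at an unadjusted p under 0.05, and none at 0 in any library. Per 1000 RPKM of that sum, a ratio chosen after the data were seen, Grin1 had a control mean of 69.7 ± 6.67 RPKM and an ELS mean of 67.8 ± 2.41 (SD, n = 5 in each group), and the groups overlapped. The part of the neuronal markers in the Grin1 difference was not tested. In bulk tissue, more cells of a type and more RNA per cell cannot be told apart.

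Grin2a, which encodes the subunit of mature forebrain receptors, was at 11.99, 9.33, 4.81, 7.18 and 12.5 RPKM in control replicates 1 to 5. In ELS replicates 1, 3, 4 and 5 it was at 2.86, 1.61, 2.33 and 2.17 RPKM, below every control, while ELS replicate 2 was at 9.27 RPKM, inside the control range. The mean in controls was 2.51-fold that of ELS, with a log2 difference (ELS minus control) of -1.52 ± 0.44 (SE; adjusted p = 0.134 by limma). Leaving out ELS replicate 2 gave -1.93 (adjusted p = 0.0182), and leaving out both it and control replicate 4 gave -1.995 (adjusted p = 0.0150). As stated above, adjusted p values without ELS replicate 2 are conditioned on the outcome. The row rested on 406 to 1046 reads in controls and 138 to 744 in ELS. Marker rows of red blood cells were also lower in ELS (4 of 4, each at an unadjusted p under 0.05, with a median log2 fold change of -1.07). Their sum was 411.5 to 981 RPKM in controls and 213.8 to 438 RPKM in ELS, the highest ELS value being that of ELS replicate 2. Their part in the Grin2a and Grin2b differences was not tested.

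Grin2b, the subunit that predominates in the young forebrain, had the same arrangement of libraries. Controls were at 7.65, 6.60, 3.43, 4.31 and 7.69 RPKM in replicates 1 to 5. ELS replicates 1, 3, 4 and 5 were at 2.07, 1.94, 1.92 and 2.12 RPKM, and ELS replicate 2 was at 6.47 RPKM. Again 4 ELS libraries lay below every control and the remaining one among them. The mean in controls was 2.05-fold that of ELS (log2 fold change -1.12 ± 0.36, SE; limma, adjusted p = 0.151), or -1.45 when ELS replicate 2 was left out (adjusted p = 0.0223) and -1.54 when both it and control replicate 4 were (adjusted p = 0.0135). The adjusted p values without ELS replicate 2 are again conditioned on the outcome. A log2 fold change of -1 or lower, as for Grin2a and Grin2b, was found in 1.47% of all genes. Of all genes tested, 3.96% (580) had ELS replicates 1, 3, 4 and 5 below all controls and ELS replicate 2 not.

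Both genes varied far more among rats than counting allows, except Grin2b within the 4 low ELS libraries. In controls the coefficient of variation was 35.4% for Grin2a and 33.0% for Grin2b, against 3.67% and 4.08% from counting. Among ELS replicates 1, 3, 4 and 5 it was 23.0% for Grin2a, against 7.33% from counting, but 4.90% for Grin2b, against 6.85% from counting. Differences of Grin2b among those 4 libraries were therefore not detectable at this depth. Per 1000 RPKM of summed neuronal markers, the control mean of Grin2a was 7.79 ± 2.50 RPKM and its ELS mean 2.72 ± 2.50. Those of Grin2b were 5.04 ± 1.49 and 2.15 ± 1.59 (SD, n = 5 in each group), so that both were lower in ELS on this scale too, with overlapping groups.

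The pair moved together from library to library. Because 4 libraries formed a separate low set for both genes, with a widest gap of 0.73 for Grin2a and 0.67 for Grin2b on the log2 scale, no correlation of the pair was tested over all 10 libraries. Over the 6 libraries of the upper set (5 controls and ELS replicate 2), Pearson's r was 0.978 (exact permutation test, two-sided, p = 0.00139, adjusted p = 0.0208 over 15 subunit pairs). Spearman's rho was 1 (exact permutation p = 0.00278, adjusted p = 0.0417). With control replicates 3 and 5 left out, the ends of the Grin2a range, r was 0.955. Of the 15 pairs, the 9 that include Grin2a or Grin2b were tested over these 6 libraries and the other 6 pairs over all 10. Only Grin2a with Grin2b passed after adjustment. Over 6 libraries the exact permutation p of Pearson's r cannot fall below 0.00139, so only a pair at or near that floor could pass. These libraries were also set apart by their Grin2a and Grin2b levels. Over the 6 libraries Grin1 had r = -0.297 with Grin2a and r = -0.271 with Grin2b (permutation test, adjusted p = 0.887 for each). With values centred within each group over 10 libraries, these were -0.787 and -0.768, given as a description. The centred values include ELS replicate 2, which was lowest in Grin1 and highest in Grin2a and Grin2b among ELS libraries.

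**Figure D2:**
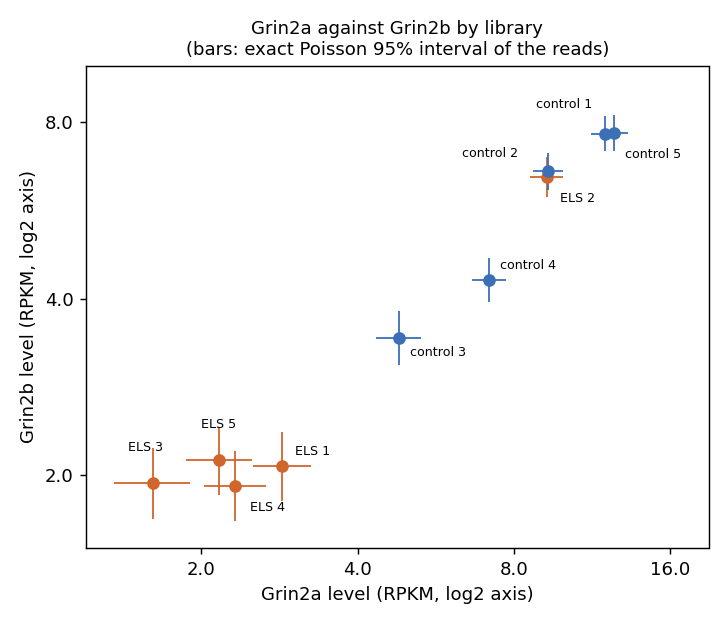
Grin2a level (horizontal, RPKM, log2 axis) against Grin2b level (vertical, RPKM, log2 axis), 1 point per library, with exact Poisson 95% intervals of the reads that cover counting error only. ELS replicate 2 (9.27 and 6.47 RPKM) lies beside control replicate 2 (9.33 and 6.60 RPKM), and the other ELS libraries sit together at the lower left.

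Within a library the ratio of the 2 genes does not depend on scaling between libraries. Grin2a was 1.40 to 1.67 times Grin2b in controls (mean 1.53 ± 0.121, SD, n = 5). In ELS replicates 1 to 5 the ratio was 1.38, 1.43, 0.832, 1.21 and 1.02, with a mean of 1.18 ± 0.251, or 1.11 ± 0.237 over the 4 libraries other than replicate 2. Only ELS replicate 2 lay inside the control range. ELS replicate 1 (1.38) was just below the lowest control (1.40), on 239 Grin2a and 214 Grin2b reads. No test was run on the ratio, and its counting error was not computed. Undivided by gene length, the ratio of reads averaged 1.24 in controls and 0.952 in ELS.

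Grin2c was at 18.9, 18.6, 20.6, 23.5 and 17.0 RPKM in control replicates 1 to 5. In ELS replicates 1 to 5 it was at 15.1, 18.7, 17.5, 14.1 and 16.8 RPKM. The highest control was replicate 4 and the groups overlapped. The log2 fold change was -0.26 ± 0.10 (SE; limma, adjusted p = 0.183), or -0.20 when control replicate 4 was left out (adjusted p = 0.214) and -0.31 when ELS replicate 2 was (adjusted p = 0.11). Astrocyte markers moved in the same direction: the summed level of Aqp4, Gfap, Aldh1l1, Slc1a3 and Gja1 was 389 to 585.6 RPKM in controls and 335.3 to 378.3 RPKM in ELS, with 5 of 5 members at a lower mean, 4 of them at an unadjusted p under 0.05, and none at 0. Per 1000 RPKM of that sum, a ratio chosen after the data were seen, Grin2c was at 43.4 ± 2.16 RPKM in controls and 44.8 ± 3.75 RPKM in ELS (SD, n = 5 in each group). The part of the astrocyte markers in the Grin2c difference was not tested.

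Grin2d, the lowest member by group mean but not in every ELS library, was at 1.68, 1.98, 1.81, 1.73 and 1.84 RPKM in control replicates 1 to 5 and at 2.10, 1.81, 2.17, 2.01 and 2.22 RPKM in ELS replicates 1 to 5. Every ELS library except replicate 2 was above all controls. The log2 fold change was 0.18 ± 0.09 (SE; limma, adjusted p = 0.288), or 0.22 when ELS replicate 2 was left out (adjusted p = 0.18). With 179 to 231 reads per library, the coefficient of variation in controls, 6.35%, was no larger than the 7.12% from counting. Per 1000 RPKM of summed neuronal markers its control mean was 1.55 ± 0.129 RPKM and its ELS mean 1.49 ± 0.128 (SD, n = 5 in each group).

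Grin3a was at 4.12, 4.50, 4.78, 2.97 and 4.12 RPKM in control replicates 1 to 5 and at 4.87, 5.31, 3.49, 5.55 and 4.34 RPKM in ELS replicates 1 to 5. The ranges overlapped over most of their length, with control replicate 4 and ELS replicate 3 lowest. The log2 fold change was 0.20 ± 0.15 (SE; limma, adjusted p = 0.48), with 0.0879 when control replicate 4 was left out (adjusted p = 0.722) and 0.297 when ELS replicate 3 was (adjusted p = 0.339). Per 1000 RPKM of summed neuronal markers, the control mean of Grin3a was 3.49 ± 0.414 RPKM and its ELS mean 3.42 ± 0.674 (SD, n = 5 in each group).

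Within each library the GluN2 genes can also be read as shares of their sum. The summed level of the 4 genes was 30.6 to 40.3 RPKM in controls, 36.2 RPKM in ELS replicate 2 and 20.4 to 23.3 RPKM in the other ELS libraries. Grin2a made up 24.5% ± 6.85 of the sum in controls (SD, n = 5), 6.95% to 12.9% in the 4 low ELS libraries (replicates 1, 3, 4 and 5) and 25.6% in the remaining one. Grin2b made up 15.95% ± 4.14 in controls, 17.9% in ELS replicate 2 and 8.36% to 9.42% in the others. The Grin2c share was 54.6% ± 10.5 in controls and 68.3% to 75.3% in those 4 libraries, which lie above all controls, and the Grin2d share was 4.98% ± 0.685 and 9.35% to 9.87%. The level of Grin1 was 1.95 to 2.67 times the GluN2 sum in controls, 3.92 to 4.87 times in the 4 low ELS libraries and 2.37 times in the remaining one. Shares and ratios were computed from RPKM within each library and were not tested.

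**Figure D3:**
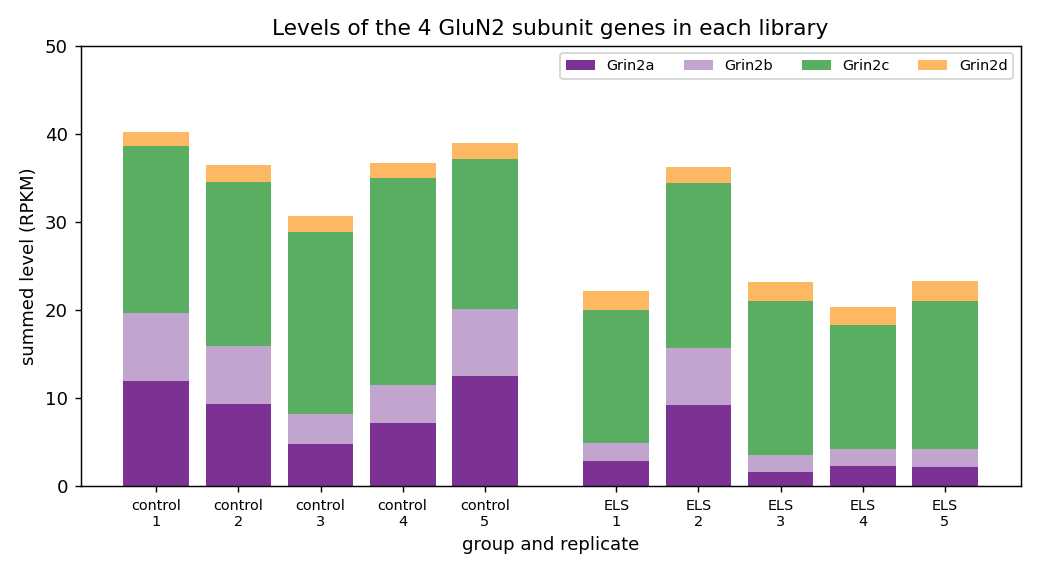
Stacked level of the 4 GluN2 genes (vertical axis, RPKM, from 0) in each library, by group and replicate. The sum was 20.4 to 23.3 RPKM in ELS replicates 1, 3, 4 and 5 and 36.2 RPKM in ELS replicate 2, and the Grin2c segment is the largest in every library.

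Among the 6 pairs without Grin2a and Grin2b, Grin1 and Grin2d had the highest r over the 10 libraries. Pearson's r was 0.785 (permutation test, two-sided, p = 0.0098, adjusted p = 0.0735) and Spearman's rho was 0.685 (permutation p = 0.034, adjusted p = 0.17). Without ELS replicates 3 and 4, the highest in Grin1, r was 0.804, and with values centred within each group it was 0.483. Grin2c ran opposite to Grin1 (r = -0.665, permutation p = 0.0348, adjusted p = 0.149; rho = -0.564, permutation p = 0.0948, adjusted p = 0.257; r = -0.593 without ELS replicates 3 and 4). It also ran opposite to Grin2d (r = -0.638, permutation p = 0.0455, adjusted p = 0.149; rho = -0.77, permutation p = 0.0121, adjusted p = 0.091; r = -0.631 without control replicate 4 and ELS replicate 4). These 3 relations did not pass after adjustment and mix the difference between groups with the spread within them. Grin2c and Grin3a had r = -0.614 (permutation p = 0.0595, adjusted p = 0.149), rho = -0.479 (permutation p = 0.168, adjusted p = 0.359) and r = 0.116 without control replicate 4 and ELS replicate 4, so their relation rested on those libraries.

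The 250 bases upstream of the annotated start are shown for Grin1 and Grin2d, the pair of highest r among the members with a promoter entry (4 of 6: Grin1, Grin2c, Grin2d and Grin3a). They come from RefSeq, build GRCr8, minus strand, and run 5′ to 3′ with CG dinucleotides in capitals. The Grin1 window is chr3:28528755-28529004 and the Grin2d window chr1:105481237-105481486.
Grin1: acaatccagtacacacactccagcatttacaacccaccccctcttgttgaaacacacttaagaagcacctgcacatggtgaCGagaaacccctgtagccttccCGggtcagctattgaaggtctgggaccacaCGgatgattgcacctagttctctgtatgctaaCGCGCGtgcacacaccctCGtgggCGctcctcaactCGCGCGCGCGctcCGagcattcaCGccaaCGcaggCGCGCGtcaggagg
Grin2d: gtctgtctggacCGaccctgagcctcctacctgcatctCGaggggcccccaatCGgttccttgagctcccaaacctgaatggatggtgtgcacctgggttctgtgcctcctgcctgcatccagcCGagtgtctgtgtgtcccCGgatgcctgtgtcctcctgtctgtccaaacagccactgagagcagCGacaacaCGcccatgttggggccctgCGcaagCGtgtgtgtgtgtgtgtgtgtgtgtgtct
The Grin1 window held 19 CG dinucleotides, most of them in its second part next to the start, and 18.4% of 33469 promoter windows of the same length held as many or more. The Grin2d window held 9, and 38.5% of windows held as many or more. The GC box GGGCGG, searched on both strands, was in neither window, nor in those of Grin2c and Grin3a, and 30.5% of all windows held it. These are descriptions of letters in 1 annotated window per gene.

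The genes whose levels were most like each subunit over the 10 libraries were found by Pearson's r on log2(RPKM + 0.1) among all genes tested, as a description of libraries that share group and depth. For Grin2a and Grin2b these r values span the gap between the 4 low libraries and the other 6, so they describe genes with the same split and were not tested. For Grin2a they were Prex2, a guanine nucleotide exchange factor of Rac (r = 0.994), Thsd7a (0.991) and Klf12, a transcription factor (0.988), with Grin2b 19th. For Grin2b they were Bmpr2, a receptor of bone morphogenetic proteins (r = 0.993), the kinase gene Wnk3 (0.991) and Rc3h1, an RNA-binding protein gene (0.989), with Grin2a 10th. All 6 shared the position of ELS replicate 2: Bmpr2, for example, was at 5.17 to 11.3 RPKM in controls, at 9.38 RPKM in ELS replicate 2, and as low as 2.51 RPKM in ELS. Klf12 was at 1.81 to 3.61 RPKM in controls, at 3.07 RPKM in ELS replicate 2, and as low as 0.322 RPKM in ELS, which there rested on 20 reads.

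For Grin1 the most like genes were Dctn1, a dynactin subunit gene (r = 0.977), Ggt7 (0.976) and the kinase gene Taok2 (0.97). Dctn1 was at 100.1 to 105.1 RPKM in controls and 105.9 to 117.8 RPKM in ELS, again with ELS replicate 2 the lowest of its group. Those most like Grin2d were Dffa (0.951), Zscan18 (0.946) and Lgi3 (0.946), at a log2 fold change of 0.12 to 0.14. Grin2c was most like the transporter gene Slc5a11 (0.964), AABR07035107.1 (0.953) and Sra1 (0.947). Grin3a was most like Fmr1, which encodes an RNA-binding protein of dendrites (0.963), Mcph1 (0.921) and Lrrc3 (0.916), and Lrrc3 rested on 9 to 24 reads per library.

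Other genes of NMDA receptor supply, anchoring and signalling were read from a list of 56 symbols in 7 role groups, of which 53 rows were tested (the list holds Grin3b as a group of its own, given in the closing section; Calm2 had 2 rows; Dao, Kmo and Cask were among those not analysed here). None passed the adjusted threshold by limma. At an unadjusted p under 0.05 there were 20 rows (37.7%, beside 20.4% of all genes), 13 higher and 7 lower in ELS, and the median log2 fold change was 0.02. The 13 were 21 without both ELS replicate 2 and control replicate 4, and the 7 were 4 without control replicate 4, without ELS replicate 5, or without ELS replicate 2 and control replicate 4 together. The groups did not overlap in 2 rows that were higher, Ppp3cb and Kalrn, and 2 that were lower, Slc6a9 and Psat1 (3.08% and 2.6% of all genes).

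Genes listed under supply of the co-agonists glycine and D-serine had lower means in ELS in 8 of 9 rows, beside 49.4% of all genes tested. The group mixes enzymes of synthesis with transporters, among them the glycine uptake gene Slc6a9, so the count gives no direction of co-agonist supply. At an unadjusted p under 0.05, 3 were lower and 0 higher (10.3% and 10.1% of all genes, the shares beside which the counts of the other role groups are also to be read). Slc6a9, the glycine transporter GlyT1 of astrocytes, was at 12.9 to 17.5 RPKM in controls and 10.8 to 12.5 RPKM in ELS (log2 fold change -0.31 ± 0.08, SE; limma, adjusted p = 0.133). Psat1, an enzyme of serine synthesis, was at 32.0 to 39.3 RPKM in controls and 23.7 to 30.4 RPKM in ELS (log2 fold change -0.29 ± 0.08). The exception was Srr, serine racemase, which makes D-serine and is named after its values were seen, at 4.64 to 5.80 RPKM in controls and 5.46 to 6.89 RPKM in ELS. Several of these genes are known from astrocytes, whose markers were lower in the same libraries, as given above, and that part was not tested. Kyat1 and Aadat, which make the receptor antagonist kynurenate, had log2 fold changes of 0.02 and -0.01.

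Scaffold genes of the postsynaptic density had higher means in 9 of 10 rows, beside 50.6% of all genes, with 3 higher and 1 lower at an unadjusted p under 0.05. Dlg4, which encodes PSD-95 and holds GluN2 tails at the synapse, was at 177.8 ± 6.64 RPKM in controls and 196.3 ± 8.77 RPKM in ELS (SD, n = 5 in each group). Shank1 was at 96.3 ± 8.23 and 111.4 ± 6.26 RPKM. Among signalling partners 5 of 9 rows were higher and 0 lower at that level. Kalrn, a guanine nucleotide exchange factor of dendritic spines, was at 36.7 to 41.3 RPKM in controls and 41.5 to 48.9 RPKM in ELS (log2 fold change 0.23 ± 0.05, SE; limma, adjusted p = 0.133), and the calmodulin gene Calm3 had a log2 fold change of 0.21 ± 0.06. Neuronal markers were higher in the same libraries, and their part in these differences was not tested.

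Kinase and phosphatase genes split, with 3 of 13 higher and 1 lower at an unadjusted p under 0.05. Ppp3cb, a catalytic subunit of calcineurin, was at 144.3 to 154.3 RPKM in controls and 155.0 to 180.5 RPKM in ELS. Prkca, protein kinase C alpha, which phosphorylates NMDA receptor subunits, was at 18.4 to 31.9 RPKM in controls and 6.39 to 19.3 RPKM in ELS (log2 fold change -0.90 ± 0.26, SE; limma, adjusted p = 0.138), and its highest ELS value was that of ELS replicate 2. Without that library the log2 fold change of Prkca was -1.06 (limma, adjusted p = 0.0574). This adjusted p is conditioned on the outcome too, and is no independent test of Prkca. Trafficking and auxiliary genes had 2 higher and 2 lower of 9. Apba1, an adaptor of the transport complex for GluN2B, ranged from 26.5 to 29.9 RPKM in controls and from 29.8 to 32.1 RPKM in ELS. Lin7c, of the same complex, ranged from 18.1 to 21.6 RPKM in controls and from 14.1 to 18.9 RPKM in ELS.

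**Figure D4:**
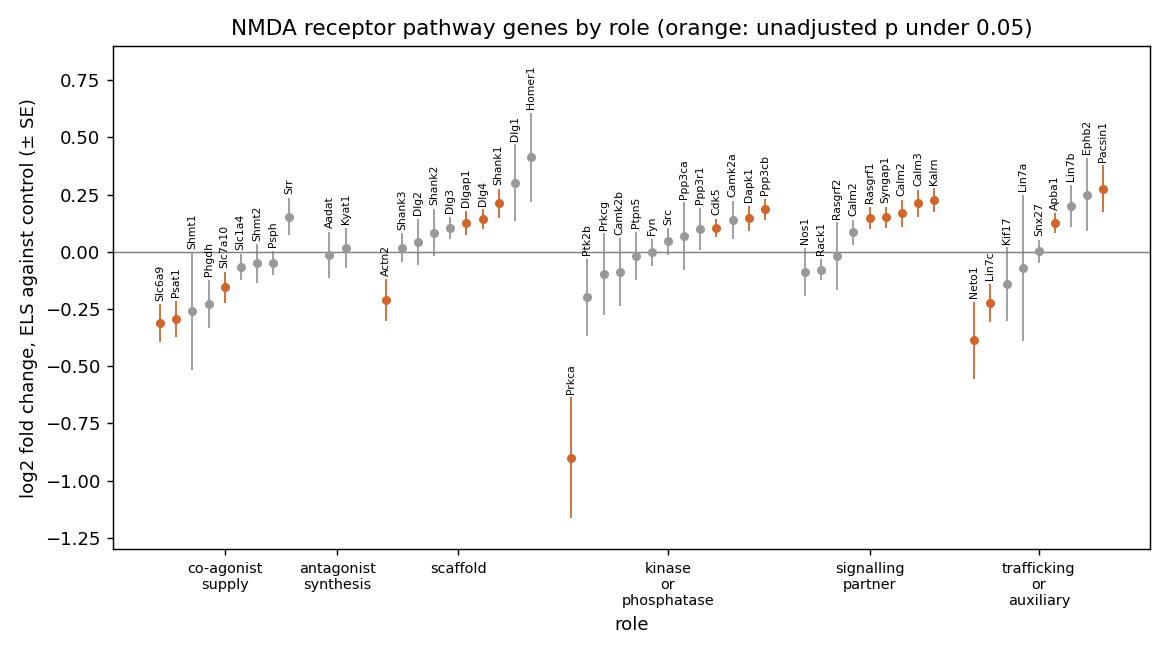
Log2 fold change of ELS against control with its SE (vertical axis) for the tested pathway genes, grouped by role, with an unadjusted p under 0.05 in orange. Genes listed under co-agonist supply lie mostly below 0 (8 of 9), scaffold genes mostly above (9 of 10), and Prkca is lowest at -0.90.

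The subunit genes kept their direction in every refit run on RPKM or reads, as the plot by setting shows. For Grin1, Grin2a and Grin2b the adjusted p crossed 0.05 where limma-voom gave libraries quality weights. It also did where ELS replicate 2 was left out, a choice conditioned on the outcome. For Grin2c, Grin2d and Grin3a it stayed at 0.0857 or above.

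**Figure D5:**
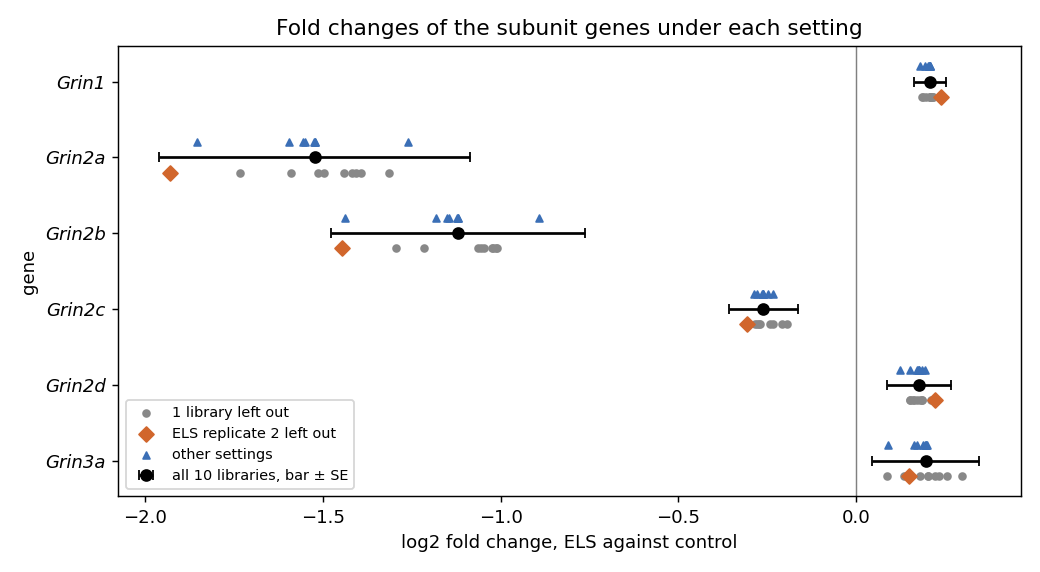
Log2 fold change of ELS against control (horizontal axis) for each subunit gene with all 10 libraries (black, ± SE), with 1 library left out (grey, ELS replicate 2 as orange diamonds) and under other settings (blue). The Grin2a values run from -1.93 to -1.26 and those of Grin1 from 0.18 to 0.24.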

How the data were processed

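Poly(A) libraries were made from column-purified, DNase-treated RNA with a stranded mRNA kit, per the labels' protocols. STAR, featureCounts and build rn6 are named in the submitters' processing notes. Versions, settings and annotation release were not given in the sources used here. Values of RPKM type were deposited by the authors for 16041 Ensembl genes in 10 libraries (whether RPKM or FPKM is not stated), and 0 columns belonged to other samples. The steps between values gave back whole read numbers, lengths and totals for 16015 rows above 0 in any library (100% whole within 0.002 reads), so intervals cover counting error only. Without strand settings, reads of overlapping antisense genes cannot be told apart.

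Values were tested as log2(RPKM + 0.1) with limma 3.58.1 (R 4.3.3; trend, robust, two-sided), over the 14642 genes that reached 0.5 RPKM in 5 libraries, which kept all 6 subunit genes. Adjustment was by Benjamini-Hochberg over all of them, with a threshold of 0.05. Correlations used 100000 permutations over 10 libraries and every ordering over 6. The procedure was tested on simulated reads. Members and lists were chosen with earlier results of these data known. Genes named were the members and Grin3b, the 2 of lowest p in each role group and the 3 most like each member, and Srr was added after its values were seen. Alternatives were pseudocounts of 1 and 0.01, no filter, 2 other scalings, limma-voom with and without weights, a replicate block and libraries left out.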

Additional observations from a re-analysis of the deposited data

Results flagged for a closer look

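Of the 26 sets of values checked, which cover control and ELS groups, 1 library stood apart in 5, all of them ELS sets. The measure was the ratio of its gap to the nearest library to the whole range of the group (critical value 0.71 for 5 libraries). In each of the 5 the library was ELS replicate 2. Its Grin2a level was 9.27 RPKM (gap ratio 0.837), its Grin2b level 6.47 RPKM (0.956) and its summed GluN2 level 36.2 RPKM (0.818). Grin2b made up 17.9% of its GluN2 sum (0.889) and Grin2d 4.99% (0.894). Chance alone marks about 1 in 20 such groups, and these 5 values are not independent, since they share the same library and the same 2 genes. No control library stood apart in these sets.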

How the results depend on the processing

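Each of the 6 subunit genes kept its direction under the 8 settings that used all libraries, with 1 library left out in turn, and without ELS replicate 2 and control replicate 4 together. With limma-voom and sample quality weights, Grin1 had a log2 fold change of 0.20 (adjusted p = 0.028), Grin2a -1.85 (0.0323) and Grin2b -1.44 (0.0349), and 947 genes in all passed, with a weight of 0.171 for control replicate 4. Without ELS replicate 2, 440 genes passed, Grin1 at 0.24, Grin2a at -1.93 and Grin2b at -1.45. Without that library and control replicate 4, 1071 passed, Grin1 at 0.25, Grin2a at -1.995 and Grin2b at -1.54, and the pathway list had 21 higher and 4 lower. Without ELS replicate 5, 1 gene passed. The cause was not tested. With 1 library left out the ranges were 0.19 to 0.24 (Grin1), -1.93 to -1.32 (Grin2a), -1.45 to -1.01 (Grin2b), -0.31 to -0.20 (Grin2c), 0.15 to 0.22 (Grin2d) and 0.09 to 0.30 (Grin3a). The count of genes past the adjusted threshold ranged from 0 to 440 and past the unadjusted one from 2128 to 3291, and pathway genes from 9 to 19 higher and 4 to 7 lower. The mean Grin2a to Grin2b ratio ranged from 1.501 to 1.57 in controls and 1.11 to 1.26 in ELS, and was 1.24 in controls on reads not divided by length, where the lengths themselves differ.

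Per summed neuron markers, added after the data were seen and not tested, 3 differences turned sign: Grin1 to -0.0356, Grin2d to -0.0562 and Grin3a to -0.0427, while Grin2a was at -1.80, Grin2b at -1.40 and Grin2c at -0.51. The neuron sum is mostly Snap25 and Syt1, whose ELS means were higher by more than those of Rbfox3 and Stmn2. These sign changes may not hold for other neuronal markers. Per summed astrocyte markers Grin2c turned to 0.0427. With the replicate number as a block, 0 genes passed and 2505 had an unadjusted p under 0.05, and the adjusted p of Grin1, Grin2a and Grin2b was 0.222. Same-numbered libraries had correlations of -0.082 to 0.066 between deviations, and 1 of 5 control libraries correlated best with its own number. The labels state no pairing, and so few libraries cannot settle whether the numbers pair rats. Of 30 recomputed pair correlations, 18 moved by 0.3 or more, and that of Grin2a with Grin2b did not. Depth limits Grin2d and the low Grin2a and Grin2b values, which rest on 138 to 239 reads.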

Other observations

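Grin3b, the other gene of the glycine-binding GluN3 type, is no member of the set described above but was in the table. Its level was 0.928, 1.02, 0.653, 1.08 and 0.899 RPKM in control replicates 1 to 5 and 0.612, 0.335, 0.959, 0.512 and 0.812 RPKM in ELS replicates 1 to 5, from 20 to 76 reads per library. The groups overlapped, and the log2 fold change on the log2(RPKM + 0.1) scale was -0.49 ± 0.25 (SE; limma, adjusted p = 0.284). In ELS replicate 2, where Grin2a and Grin2b were at the control level, Grin3b was at its lowest level of the 10 libraries, 0.335 RPKM.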
